A study of Rattus norvegicus with 144 samples.

Results

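Intronic assembled transcripts are pieces of RNA that the assembler built from reads lying wholly inside an intron of an annotated gene, the host gene. Members were chosen by their own FPKM (a fragment count scaled to transcript length and to the mapped fragments of the library). A member had class code i, the assembler's label for a transcript inside an intron, and an FPKM over 0.5 in 6 or more of the 12 rats, in every one of the 4 strain by drug groups of a region. In the prefrontal cortex (PFC) 587 of 141555 rows with class code i passed (0.415%), in the dorsal hippocampus (HIP) 693 of 123728 (0.56%), and in the dorsal striatum (STR) 715 of 141804 (0.504%). All lengths, levels, and presences below describe members selected on these values.

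The 4 groups were saline-treated F344 rats (F344_Sal), nicotine-treated F344 rats (F344_Nic), and saline- and nicotine-treated HIV-1 transgenic rats (HIV_Sal and HIV_Nic), with 12 adult male rats each and 144 libraries in all. HIV-1Tg rats have the F344 background. Their transgene is a non-infectious HIV-1 provirus that lacks gag and pol, and its own viral promoter sets which cells express it. F344 controls lack the transgene. Nicotine was given at 0.25 mg/ml, and saline or nicotine at 1 ml/kg, by subcutaneous injection, morning and afternoon, for 17 days. An exact age was not given in the sources used here. The 3 regions were cut from each brain, so the regions do not stand for separate animals.

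Introns are copied with the rest of a gene and removed by splicing, after which most intron RNA is degraded. Reads inside an intron can come from unspliced precursor, from a retained intron, from an exon missing in the annotation, or from an independent RNA such as a small nucleolar RNA, a microRNA precursor, or a transcribed repeat. Brain RNA is known for long genes and abundant intronic signal. The tables give no positions within the intron, no strand, and no sequence, so these kinds cannot be told apart for any member. They also give hosts only as Ensembl gene IDs. None of these IDs (0) was found in the gene table used here, so hosts are named by ID, few are printed, and their functions are left out. The regional and cell type identity of the tissue could not be checked on marker genes for the same reason.

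Most intronic assemblies were not seen again in another rat. In the PFC 98194 of the class i rows (69.4%) had a value in only 1 of 48 rats, in the HIP 83959 (67.9%), and in the STR 97428 (68.7%). Members had a value in 25 to 48 rats in the PFC and HIP and in 24 to 48 in the STR, with a median of 38 in each region, and 39, 49, and 48 members had one in all 48 rats. The FPKM limit itself removed few rows. Of the 605, 698, and 717 rows with a value in at least 6 rats of each group, it removed 18 in PFC, 5 in HIP, and 2 in STR, so the selection rests mainly on repeated assembly. A missing value means that the transcript was not assembled in that rat, not that its level was 0.

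The limit passed through closely spaced values. Just inside it in the PFC was a member of 1138 bases hosted by ENSRNOG00000033516, whose sixth highest FPKM in its lowest group was 0.506, and just outside was a row of 2201 bases at 0.484. The same pair of values was 0.511 and 0.488 in the HIP and 0.513 and 0.497 in the STR.

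Members were short. Their median length was 681 bases in PFC, 616 in HIP, and 566.5 in STR, against 2281, 2193, and 2225 bases for the exactly annotated transcripts that passed the same filter. The shortest was 56 bases in the PFC and 51 in both other regions, and the longest was 7481, 9062, and 7447 bases. One host, ENSRNOG00000007682, held the longest member of both the PFC and the STR. Members shorter than 150 bases numbered 39 in PFC (6.64%), 99 in HIP (14.3%), and 115 in STR (16.1%). The PFC number cannot be read as a plain regional value. The rule needed 6 of the 12 F344_Nic rats, and 10 of those PFC libraries held 43 to 56 class i rows shorter than 100 bases. The other 38 PFC libraries held 125 to 185 and those of the HIP 93 to 140. Whether this lowered the count or raised the median length was not tested. The assembled ends differed between rats, with a median coefficient of variation of length of 15.6%, 15.1%, and 15.7%.

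The FPKM of a member followed its length. Spearman's rho between length and mean FPKM across members was -0.67 in PFC, -0.78 in HIP, and -0.78 in STR. This describes members that share libraries. Below 150 bases the median of the mean FPKM was 6230, 9680, and 14100. From 150 to under 500 bases it was 12.9, 16.8, and 14.9, and from 500 bases on it was 1.77, 2.15, and 2.1. The highest member of all, 51 bases long in the STR, was listed at a mean FPKM of 760000. Exactly annotated transcripts under 150 bases did not show such values, with medians of 4.26, 4.39, and 5.01. Cufflinks divides fragments by an effective length, which becomes small for a transcript near the fragment length. Whether this produced the high values of the short members was not tested. Base coverage per FPKM in members under 150 bases was 0.532, 0.534, and 0.533 of that in long annotated transcripts, and 0.975, 0.971, and 0.968 in members of 500 bases or more. Because level followed length, levels are compared between members only from 500 bases on.

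**Figure D1:**
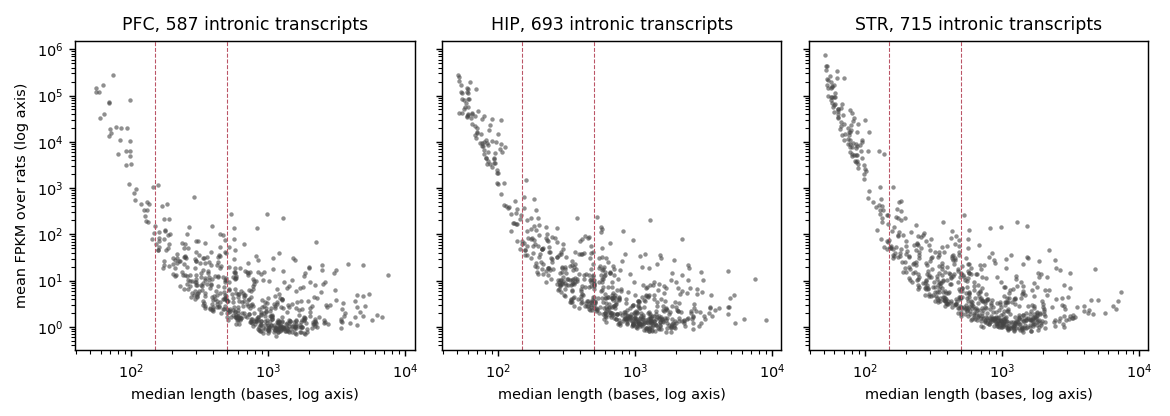
Mean FPKM over rats (vertical, log axis) against median length in bases (horizontal, log axis) for every intronic member of each region, 1 point a member, with dashed lines at 150 and 500 bases. Values fall from above 100000 at the shortest lengths to medians of 1.77 to 2.15 at 500 bases or more.

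Among members, the short ones varied most between rats. The median within-group SD of log2(FPKM + 0.1) was 0.83, 0.88, and 0.88 below 150 bases in the PFC, HIP, and STR, and 0.3, 0.3, and 0.32 from 500 bases on. Annotated transcripts had larger SDs in both classes, 1.9, 2.1, and 2.1 below 150 bases and 0.71, 0.68, and 0.7 from 500 bases on. From 150 to under 500 bases the SDs were close, 0.38, 0.38, and 0.42 in members and 0.44, 0.43, and 0.4 in annotated transcripts. Each SD covers only the rats with a value.

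Among members of 500 bases or more, a few stood far above the rest. The highest in all 3 regions was hosted by ENSRNOG00000026978, with a length of 538, 527, and 529 bases. Its FPKM ranged from 103 to 737 over 46 rats in PFC (mean 273), from 207 to 417 over 46 rats in HIP (mean 236), and from 223 to 334 over 47 rats in STR (mean 261). The annotated transcripts of that host had means of only 5.74, 4.86, and 5.07, counted as absent in rats where they were not assembled. A second, hosted by ENSRNOG00000004185 and 1291, 1287.5, and 1289 bases long, had mean FPKM of 222, 206, and 181. Its host had 5.68, 6.86, and 8.28, counted in the same way. Another, hosted by ENSRNOG00000010802, was the second highest in PFC and differed more between regions, with mean FPKM of 272 over 48 rats in the PFC, 74.2 over 47 rats in HIP, and 145 over 47 rats in STR. Its rats ranged from 218 to 600 in the PFC and from 52.3 to 175 in the HIP, so these 2 regions did not overlap, though their tables were assembled separately.

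Members lay in 480 host genes in PFC, 566 in HIP, and 578 in STR. Single members were the rule, with 405, 470, and 471 hosts holding just 1 and 20, 24, and 24 holding 3 or more. The most was 7 members in ENSRNOG00000042745 in the PFC, of which 6 had median lengths of 623 to 1175 bases and mean FPKM from 0.824 to 1.91, and the other was 393 bases long. Of all 827 hosts, 286 held a member in every region, which is 59.6% of the PFC hosts, 50.5% of the HIP hosts, and 49.5% of the STR hosts. The HIP and STR shared 409 (72.3% and 70.8%), the PFC and HIP 339 (70.6% and 59.9%), and the PFC and STR 335 (69.8% and 58.0%).

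Host genes had a measured annotated transcript for 265 PFC members (45.1%), 325 HIP members (46.9%), and 374 STR members (52.3%). Where such a member had 500 bases or more, its mean FPKM was at the median 63.4% of that of its host in PFC (152 members), 62.9% in HIP (172 members), and 64.8% in STR (198 members). It exceeded the host for 46, 57, and 68 of them (30.3%, 33.1%, and 34.3%). These means have unlike bases. That of a member covers only the rats in which it was assembled. That of a host covers all 48 rats, and counting its transcripts as absent where they were not assembled lowers it. Across rats, with group means removed, the correlation of member and host was weak at the median. Rats without the member were left out, but a host transcript not assembled in a rat was counted as absent. A low r therefore does not show that the levels of member and host were unrelated. The median Pearson r over the members with a host level was 0.05 in PFC (quartiles -0.1 and 0.17), 0.03 in HIP (-0.09 and 0.15), and 0.01 in STR (-0.1 and 0.15). Each r used 24 to 48 rats and both values came from the same library.

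By host transcript and a length within 10%, 213 PFC members in 188 hosts had a counterpart in both other regions. Levels of the 109 of them with 500 bases or more were alike between regions, with r of log2 mean FPKM of 0.97 for PFC and HIP, 0.97 for PFC and STR, and 0.98 for HIP and STR. The median difference was 1.15-fold, 1.17-fold, and 1.12-fold, and 6, 8, and 1 members differed by more than 2-fold.

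Some libraries stood apart before any comparison. In 10 of the 12 PFC F344_Nic libraries, all but rats 4 and 8, coverage per FPKM in annotated transcripts of 250 to under 400 bases was 0.94 to 0.963 of that in long ones, against 0.735 to 0.821 in the other 38 PFC libraries. They are the libraries with few short class i rows. The labels name no batch. Of the other libraries, 3 held few members: PFC HIV_Nic rat 10 with 299 members, PFC HIV_Nic rat 11 with 361, and HIP HIV_Nic rat 4 with 434, where the regional medians were 471 and 548.5. F344_Sal rat 10 and HIV_Sal rat 6 had lower median correlations with the other libraries of their region, 0.61 each in the HIP and 0.6 and 0.596 in the STR, with 474 and 509 members in the HIP and 510 and 505 in the STR. STR HIV_Nic rats 6 and 7 had the highest depth ratio of their region (coverage per FPKM in long annotated transcripts, which scales with sequencing depth), 3.49 and 3.54, where the median was 2.22. Over all libraries this ratio ran from 2.1 to 3.58 in PFC, 1.66 to 2.51 in HIP, and 1.66 to 3.54 in STR. Read totals were not used here.

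**Figure D2:**
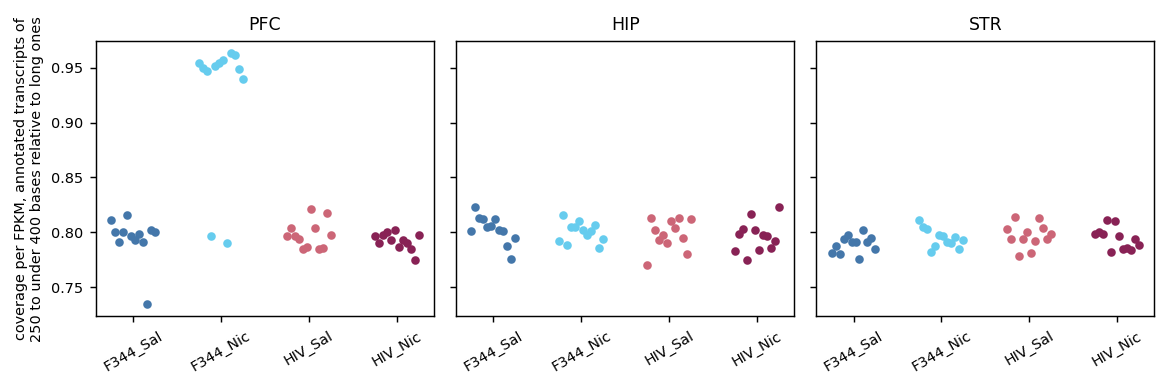
Base coverage per FPKM in annotated transcripts of 250 to under 400 bases, relative to annotated transcripts of 2000 bases or more (vertical, no unit, axis not from 0), in each of the 144 libraries by group (horizontal) and region. The 10 PFC F344_Nic libraries sit at 0.94 to 0.963, and every other library of the 3 regions at 0.735 to 0.823.

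Strain and nicotine differences were tested in each region with limma on log2(FPKM + 0.1). A fold is therefore on that scale. Here a transcript is called when its unadjusted p is under 0.05 and its fold over 1.2, and called after adjustment when its Benjamini-Hochberg p over all transcripts of the region is under 0.05. Strain differences are HIV-1Tg minus F344 over both drugs, and nicotine differences are nicotine minus saline over both strains. The interaction is the nicotine difference in HIV-1Tg rats minus that in F344 rats. Every share of members is set beside the share among all transcripts tested, 17477 in PFC, 18501 in HIP, and 18625 in STR. Splits by direction under other settings, such as median scaling, were not computed over all transcripts and are given for members only. Bulk tissue cannot tell fewer cells of a type from less RNA per cell.

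In the PFC with all libraries, 90 members were called for strain (15.3%, against 8.94% of all transcripts). Of these 71 were higher in HIV-1Tg rats and 19 lower, where 5.94% and 3.0% of all transcripts were. After adjustment 42 members were called, against 3.75% of all transcripts. For nicotine 78 members were called (13.3% against 8.43%), 22 higher and 56 lower (2.45% and 5.98% of all transcripts), and 43 after adjustment (3.58% of all). Median scaling moved that split to 34 higher and 55 lower. For the interaction 104 members were called (17.7% against 11.9%), 84 higher and 20 lower (8.75% and 3.12% of all), and 44 after adjustment (4.14% of all).

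These PFC counts moved with the 10 F344_Nic libraries. Without them, 30 of 556 testable members were called for strain (5.4%, against 4.42% of all transcripts), 26 higher and 4 lower, with 2 after adjustment. Nicotine calls fell to 19 (3.42% against 3.68%), 2 higher and 17 lower, with 1 after adjustment. Interaction calls fell to 27 (4.86% against 5.62%), 26 higher and 1 lower, with 1 after adjustment. For fits without the 10 libraries, directions and adjusted counts over all transcripts were not computed. The splits and adjusted counts of members are therefore not read as particular to them. F344_Nic then rested on rats 4 and 8 alone, or on 1 of them where the other had no value. Whether the 10 libraries differ by nicotine or by their handling cannot be told apart.

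Single contrasts showed where the calls sat. F344_Nic against F344_Sal called 105 PFC members (17.9%, against 10.7% of all transcripts), 24 higher and 81 lower (2.74% and 7.96% of all), and 69 after adjustment (5.66% of all). Without the 10 libraries it called 18 of 556 (3.24%, against 4.39% of all), 2 of them after adjustment. HIV_Sal against F344_Sal has group means without these libraries, though the spread is pooled over all groups. It called 24 (4.09%, against 4.31% of all), 10 higher and 14 lower, and 1 after adjustment (0.0458% of all). Fitted without the 10 it also called 24 (3.98% of all), 13 higher and 11 lower. HIV_Nic against HIV_Sal called 46 (7.84%, against 7.55% of all) and 0 after adjustment with limma (0.0% of all), with 50 at an unadjusted p under 0.05 (8.52%, against 8.38% of all).

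The strain, nicotine, and interaction calls left after adjustment without the 10 libraries rest on 1 F344_Nic rat each, and so do the 2 of F344_Nic against F344_Sal. The member hosted by ENSRNOG00000007623, 1839 bases long, gave the only nicotine and interaction calls and 1 of the 2 strain calls. Its FPKM was 12.0 to 15.3 in 9 F344_Sal rats, 11.7 to 13.9 in 11 HIV_Sal rats, and 9.69 to 13.9 in 6 HIV_Nic rats. In F344_Nic it was 3.85 in rat 4 and 4.86 to 13.8 in 7 of the 10 libraries, 6 of them within the range of HIV_Nic, and it was not assembled in rat 8. Without the 10, where F344_Nic is rat 4 alone, its log2 nicotine difference went from -0.33 (adjusted p = 0.217, limma) to -0.96 (adjusted p = 1.97e-07) and its strain difference from 0.15 (adjusted p = 0.743) to 0.78 (adjusted p = 7.07e-06). The other strain call, at 1.54 (adjusted p = 0.0348, limma), was a member of 1505 bases hosted by ENSRNOG00000007682, whose F344_Nic value was then that of rat 4 as well (1.58), next to 1.44 to 20.6 in 8 of the 10.

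The difference in the 10 libraries depended on length. For F344_Nic against F344_Sal, 17 of 39 members under 150 bases were called, 11 of them higher, with a median log2 difference of 0.38. From 150 to under 500 bases 59 of 178 were called, 51 of them lower, with a median of -0.12. From 500 bases on 29 of 370 were called, 24 lower, with a median of -0.002. Annotated transcripts of 150 to under 500 bases also had more lower than higher calls, with 245 of 637 called, 214 of them lower, and a median of -0.22. Those under 150 bases differed in sign from the short members, with 6 of 39 called, 5 of them lower, and a median of -0.57. From 500 bases on 787 of 9795 annotated transcripts were called (8.03%, against 7.84% of the long members), 539 of them lower.

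**Figure D3:**
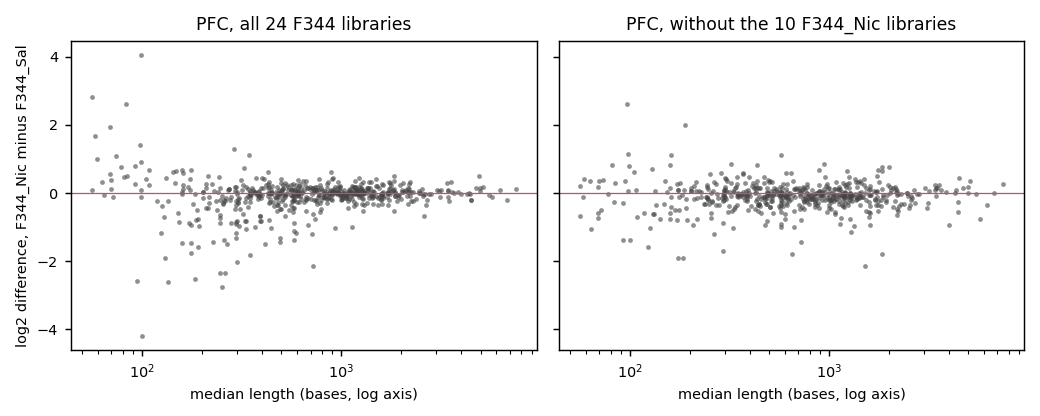
Log2 difference F344_Nic minus F344_Sal in the PFC (vertical) against median length in bases (horizontal, log axis), 1 point a member, with all F344 libraries (left) and without the 10 F344_Nic libraries (right). On the left the members of 150 to under 500 bases reach far below 0, with 51 of 178 called lower, and on the right 18 members of all lengths are called.

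A pair of members shows the pattern rat by rat. The one hosted by ENSRNOG00000012966, 246.5 bases long, had FPKM of 61.4 to 89.1 in F344_Sal (median 75.7), 58.7 to 78.9 in HIV_Sal (median 69.1), and 60.8 to 120 in HIV_Nic (median 72.1). In F344_Nic it was 7.8 to 13.8 in 9 of the 10 libraries and not assembled in the other, but 68.5 in rat 4 and 64 in rat 8. The 10 libraries thus did not overlap with any other, and the other F344_Nic rats lay within the remaining groups. Its log2 nicotine difference was -1.09 (SE 0.17, adjusted p = 1.42e-05, limma) with all libraries and -0.01 without the 10. The annotated transcript of the same host had a nicotine difference of 0.1 (adjusted p = 0.536, limma).

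The member hosted by ENSRNOG00000010325, 252 bases long, gave the largest strain difference of the PFC after adjustment. Its FPKM was 19.3 to 56.4 in F344_Sal, 21.9 to 53.8 in HIV_Sal, and 21.5 to 66.9 in HIV_Nic, but 2.56 to 4.75 in 9 of the 10 libraries. Its log2 strain difference of 1.62 (SE 0.22, adjusted p = 3.52e-06, limma) became -0.05 without them, where F344_Nic is rat 8 alone (48.9), since the transcript was not assembled in rat 4.

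A short member moved the other way. Hosted by ENSRNOG00000010455 and 56 bases long, it had FPKM of 141000 to 636000 in the 10 libraries and 5470 to 91600 in the rest. The log2 strain difference was -1.49 (SE 0.42, adjusted p = 0.033, limma), and 0.25 without the 10.

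One PFC member did not follow these libraries. Hosted by ENSRNOG00000032995 and 477 bases long, it had FPKM of 4.01 to 11.3 in 9 F344_Sal rats (median 5.48) and 1.63 to 3.31 in 10 HIV_Sal rats (median 2.62). The saline groups did not overlap. In F344_Nic it was 3.42 to 5.87 over 7 rats and in HIV_Nic 1.98 to 5.62 over 9, where the 2 highest values were those of rats 10 and 11. HIV_Sal was 2.14-fold lower than F344_Sal (log2 difference -1.1, SE 0.18, adjusted p = 0.00234, limma), the 1 member called after adjustment in that contrast. The strain difference was -0.8 (SE 0.14, adjusted p = 0.000127). Its host's annotated transcript had a strain difference of 0.1 (SE 0.5, adjusted p = 0.97). The transcript was not assembled in 13 of the 48 rats, and setting those values to 0 gave a strain difference of 0.05.

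**Figure D4:**
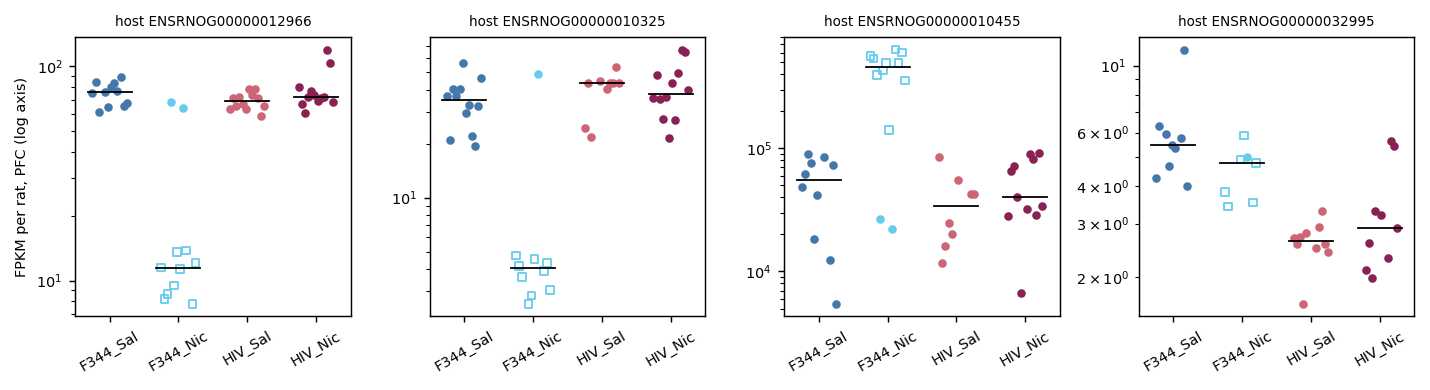
FPKM per rat (vertical, log axis, scale set in each panel) of 4 PFC members by group (horizontal), with black bars at group medians and open squares for the 10 F344_Nic libraries. The squares lie at 7.8 to 13.8, at 2.56 to 4.75, and at 141000 to 636000 in the first 3 panels, apart from all other rats. In the fourth they lie at 3.42 to 5.87, overlapping the 4.01 to 11.3 of F344_Sal and reaching below it.

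In the HIP 36 members were called for strain (5.19%, against 3.9% of all transcripts), 34 higher in HIV-1Tg rats and 2 lower (2.63% and 1.28% of all), and 1 after adjustment (0.0919% of all). Median scaling moved the split to 29 and 7. Short members made up most of it: 19 of 99 under 150 bases were called, all 19 higher, against 10 of 193 from 150 to under 500 bases and 7 of 401 from 500 bases on. Annotated transcripts had 25 of 756 called in the middle class (3.31%, against 5.18% of the members) and 342 of 10253 from 500 bases on (3.34%, against 1.75% of the members). Those under 150 bases had 1 of 40 called, which was lower, and a median log2 difference of -0.13 where the short members had 0.26. The short members moved together from library to library. The median deviation of those under 150 bases from their own means ran from 0.11 to 0.88 on the log2 scale in HIV_Nic libraries, from -0.27 to 0.46 in HIV_Sal, from -0.23 to 0.38 in F344_Nic, and from -0.75 to 0.48 in F344_Sal. What moves them was not tested.

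Of the members higher in HIV-1Tg HIP, the largest difference belonged to a member of 189.5 bases hosted by ENSRNOG00000029682. Its FPKM was 12.2 to 137 in F344_Sal (median 41.1), 9.14 to 477 in F344_Nic (median 40.6), 14.9 to 1180 in HIV_Sal (median 173), and 15.3 to 2720 in HIV_Nic (median 226). All groups overlapped, and the log2 difference of 2.04 (SE 0.63) had p = 0.00219 but an adjusted p of 0.473 with limma. The members lower in HIV-1Tg rats were those hosted by ENSRNOG00000034303, described below, and by ENSRNOG00000013336, whose log2 difference was -0.34 (SE 0.14, adjusted p = 0.78, limma) and which lost the call with a pseudocount of 1.

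Nicotine called 36 HIP members (5.19%, against 3.81% of all), 28 higher and 8 lower (2.12% and 1.68% of all). None passed adjustment (0 with limma, 0.0% of all), and 39 had an unadjusted p under 0.05 (5.63%, against 5.5% of all). The smallest p was that of a member of 99 bases hosted by ENSRNOG00000010637. Its FPKM was 395 to 2950 in F344_Sal (median 1040), 909 to 12400 in F344_Nic (median 2120), 134 to 3140 in HIV_Sal (median 1170), and 1700 to 7200 in HIV_Nic (median 3180). The nicotine-treated medians were higher in both strains, though the groups overlapped, and the log2 difference was 1.47 (SE 0.3, p = 1.62e-05, adjusted p = 0.0997, limma). The lowest among the long members was one of 4757.5 bases hosted by ENSRNOG00000037844, with a log2 difference of -0.69 (SE 0.24, adjusted p = 0.801, limma).

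The HIP interaction called 63 members (9.09%, against 7.97% of all), 33 higher and 30 lower (5.44% and 2.53% of all), or 21 and 37 with median scaling. None passed adjustment (0 with limma, 0.0% of all), while 70 had an unadjusted p under 0.05 (10.1%, against 9.1% of all). The highest and lowest were hosted by ENSRNOG00000005343, at 1.47 (SE 0.55, adjusted p = 0.433, limma), and by ENSRNOG00000012618, at -1.19 (SE 0.52, adjusted p = 0.496, limma).

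In the STR 68 members were called for strain (9.51%, against 6.31% of all transcripts), 4 higher in HIV-1Tg rats and 64 lower (1.52% and 4.79% of all), and 2 after adjustment (0.279% of all). Median scaling left 11 higher and 45 lower. By length, 21 of 115 members under 150 bases were called, 20 of them lower, 31 of 210 from 150 to under 500 bases, 30 of them lower, and 16 of 390 from 500 bases on, 14 of them lower. Annotated transcripts had 64 of 737 called from 150 to under 500 bases (8.68%, against 14.8% of the members), 44 of them lower, and 570 of 10268 from 500 bases on (5.55%, against 4.1% of the members), 378 of them lower. Those under 150 bases had 0 of 47 called by the same limma rule, 0 after adjustment, and a median log2 difference of 0.23, where the short members had -0.22. The middle class differed as a whole between the saline groups: the median deviation per library lay between -0.13 and -0.01 on the log2 scale in HIV_Sal and between 0.01 and 0.2 in F344_Sal, so these groups did not overlap. It ran from -0.13 to 0.03 in HIV_Nic and from -0.04 to 0.13 in F344_Nic. Annotated transcripts of that length had a median strain difference of -0.08, and the members one of -0.14. Depth moved with strain as well, with a median depth ratio of 2.025 and 2.205 in F344_Sal and F344_Nic against 2.355 and 2.385 in HIV_Sal and HIV_Nic. With the depth ratio as a covariate 47 of 715 members were called, 14 higher and 33 lower, where 5.35% of all transcripts were called.

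Base coverage per FPKM of transcripts under 70 bases also split some STR and HIP groups between rats 2 to 7 and the others, from 0.528 to 0.574 in STR HIV_Sal where F344_Sal was 0.53 to 0.533. Within rats 2 to 7 alone 61 of 715 STR members were called for strain, 5 higher and 56 lower, where 7.7% of all transcripts were called, and within rats 1 and 8 to 12 alone 44 of 714, 4 higher and 40 lower, where 4.6% of all were. In the HIP the same sets gave 50 calls among 692 members, 44 of them higher, with 5.41% of all transcripts called, and 32 calls, 19 of them higher, with 4.0% of all called.

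The 2 STR members called after adjustment were both lower in HIV-1Tg rats. The one hosted by ENSRNOG00000012966, 246 bases long and assembled in all 48 rats, had FPKM of 89.2 to 115 in F344_Sal (median 104), 64.3 to 121 in F344_Nic (median 96.2), 63.5 to 96.6 in HIV_Sal (median 87.3), and 77.4 to 105 in HIV_Nic (median 82.3). Of the 24 HIV-1Tg rats, 22 lay below the F344 median, and the difference was 1.17-fold (log2 -0.22, SE 0.05, adjusted p = 0.0422, limma). Across the 48 rats with group means removed, this member and the annotated transcript of its host had r = 0.36 (permutation p = 0.0109, adjusted 0.174 over 16 such relations) and rho = 0.35 (permutation p = 0.0149, adjusted 0.238). Without the 2 rats farthest from the median host level r was 0.36. In the PFC r was 0.11 over 46 rats (permutation p = 0.459, adjusted 0.758, with rho = 0.18, permutation p = 0.23, adjusted 0.526), -0.01 without the 2 farthest rats, and 0.64 over 37 rats without the 10 F344_Nic libraries. The STR call after adjustment was lost with the block (adjusted p = 0.0571), the depth covariate (0.277), median scaling (0.156), and without HIV_Nic rats 6 and 7 (0.0617), with the log2 difference between -0.22 and -0.18. In the HIP the member taken as its counterpart had a strain difference of 0.03 (adjusted p = 0.94, limma). The highest called difference among STR members of 150 bases or more was hosted by ENSRNOG00000025423, at 0.38 (SE 0.16, adjusted p = 0.407, limma), with 18 of 20 HIV-1Tg rats above the F344 median. It became -0.48 with missing values set to 0.

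A transcript hosted by ENSRNOG00000034303, matched between regions only by host transcript and length, was lower in HIV-1Tg rats in all 3 regions. It was 183.5 bases long in PFC, 182 in HIP, and 183.5 in STR, and its 3 tests rest on separate libraries, probably of the same rats. In the PFC its FPKM was 390 to 648 in F344_Sal (median 524), 368 to 614 in F344_Nic (median 511), 188 to 593 in HIV_Sal (median 290), and 213 to 1560 in HIV_Nic (median 279). The groups overlapped, and the value of 1560 came from rat 10, the library with the fewest members.

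In the HIP it was 269 to 1060 in F344_Sal (median 640), 551 to 1160 in F344_Nic (median 743), 198 to 656 in HIV_Sal (median 405), and 348 to 584 in HIV_Nic (median 483). All 21 HIV-1Tg rats in which it was assembled lay below the F344 median of 700. In the STR it was 220 to 851 in F344_Sal (median 404), 305 to 397 in F344_Nic (median 356), 138 to 359 in HIV_Sal (median 218), and 149 to 395 in HIV_Nic (median 218). The 851 came from F344_Sal rat 10, and the next highest of that group was 480. There 17 of 18 HIV-1Tg rats lay below the F344 median of 375.

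The log2 strain difference was -0.58 in PFC (SE 0.16, 1.5-fold, adjusted p = 0.0266, limma), -0.66 in HIP (SE 0.12, 1.58-fold, adjusted p = 0.00523), and -0.68 in STR (SE 0.14, 1.6-fold, adjusted p = 0.0215). Nicotine differences were 0.11, 0.27, and -0.09, with adjusted p of 0.873, 0.9, and 0.903, and the HIP value passed the unadjusted rule (p = 0.0292). The interaction had adjusted p of 0.764, 0.99, and 0.986. The annotated transcript of the host had strain differences of 0.15 (SE 0.21), 0.04 (SE 0.25), and -0.22 (SE 0.19), with adjusted p of 0.865, 0.988, and 0.737. Member and host had r of -0.1, 0.21, and 0.11, with permutation p of 0.521, 0.19, and 0.496 over 42, 41, and 38 rats (adjusted 0.758, 0.634, and 0.758), and rho of -0.04, 0.27, and 0.09 with permutation p of 0.82, 0.0844, and 0.597 (adjusted 0.905, 0.526, and 0.868). Without the 2 farthest rats r was -0.15, 0.21, and 0.09. In these relations the host counted as absent in any rat where its transcript was not assembled.

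In the PFC the difference was -0.71 without HIV_Nic rats 10 and 11, and -0.58 (p = 0.0292, adjusted p = 0.893, limma) without the 10 F344_Nic libraries. It was -0.93 in rats 2 to 7 and -0.17 (p = 0.551) in rats 1 and 8 to 12. The transcript was not assembled in 6 to 10 rats of each region, and setting those values to 0 ended the call in all 3. Without F344_Sal rat 10 and HIV_Sal rat 6 the difference was -0.68 in the HIP and -0.65 in the STR. In the STR the adjusted p was 0.0722 with the replicate number as a block, 0.147 with the depth covariate, and 0.0503 with median scaling (limma).

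**Figure D5:**
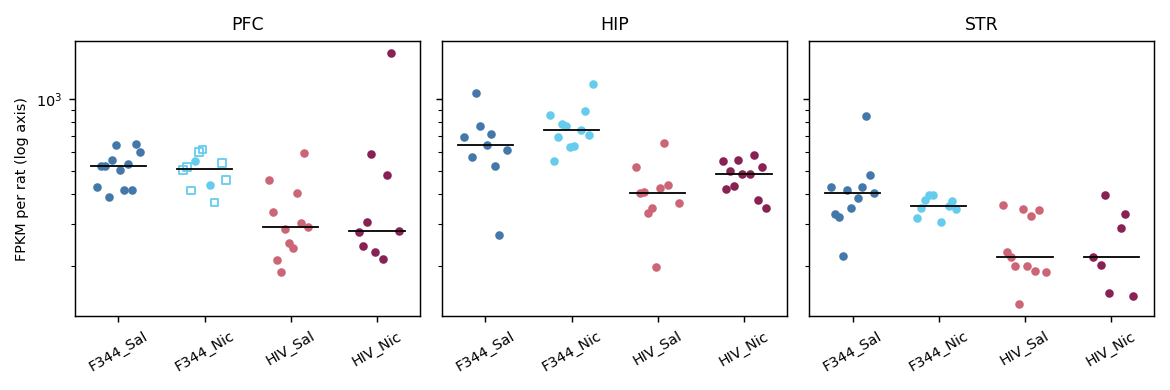
FPKM per rat (vertical, log axis) of the intronic transcripts of 182 to 183.5 bases hosted by ENSRNOG00000034303, matched between regions by host transcript and length. Values are shown by group (horizontal) and region, with black bars at group medians and open squares for the 10 PFC F344_Nic libraries. HIV-1Tg medians are 279 and 290 in the PFC, 405 and 483 in the HIP, and 218 in both STR groups, each below the F344 medians of its region.

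Nicotine called 44 STR members (6.15%, against 5.11% of all), 18 higher and 26 lower (2.01% and 3.1% of all). None passed adjustment (0 with limma), where 0.0644% of all transcripts did, and 63 had an unadjusted p under 0.05 (8.81%, against 7.78% of all). The smallest p belonged to a member of 497 bases hosted by ENSRNOG00000024115, which was assembled in all 48 rats. Its FPKM was 2.56 to 5.31 in F344_Sal (median 3.39), 2.46 to 7.99 in F344_Nic (median 4.67), 3.03 to 5.16 in HIV_Sal (median 3.42), and 3.6 to 7.72 in HIV_Nic (median 4.78). Both nicotine medians were above both saline medians while the groups overlapped, and the log2 difference was 0.42 (SE 0.1, 1.34-fold, adjusted p = 0.102, limma). The lowest was a member of 92 bases hosted by ENSRNOG00000003198, with a log2 difference of -1.1 (SE 0.44, adjusted p = 0.55, limma). Its counterpart of 94.5 bases was also called in the HIP, at -0.81 (SE 0.37, adjusted p = 0.9, limma), and its PFC counterpart differed by -0.08 (p = 0.79 from the limma fit).

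The STR interaction called 43 members (6.01%, against 4.84% of all), 27 higher and 16 lower (2.8% and 2.04% of all), or 21 and 21 with median scaling. None passed adjustment (0 with limma, 0.0% of all), and 44 had an unadjusted p under 0.05 (6.15%, against 5.31% of all). The lowest was hosted by ENSRNOG00000024082 and 98 bases long, with median FPKM of 943 and 6510 in F344_Sal and F344_Nic, and of 3220 and 343 in HIV_Sal and HIV_Nic. Its interaction was -4.78 (SE 1.2, adjusted p = 0.46, limma), with rats from 81.7 to 19500. Among longer members the smallest p was that of one of 570 bases hosted by ENSRNOG00000033700, at -0.84 (SE 0.21, adjusted p = 0.426, limma). It was 3.17 to 5.93 in HIV_Sal and 2.01 to 3.66 in HIV_Nic, 2.3 to 4.78 in F344_Sal, and 2.39 to 5.07 in F344_Nic.

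Set side by side over the 213 counterparts, strain differences had r = 0.0 between PFC and HIP, 0.03 between PFC and STR, and -0.3 between HIP and STR. For the 109 of 500 bases or more the values were 0.17, 0.01, and 0.02, and for the 21 under 150 bases -0.13, 0.06, and -0.53. Of 213 counterparts, 54 were called for strain in 1 region (25.4%), 7 in 2 (3.29%), and 2 in 3 (0.939%). Of 9394 annotated transcripts tested in all 3 regions, 15.0%, 1.2%, and 0.106% were. Of the 9 counterparts called in 2 or 3 regions, 4 went 1 way and 5 both ways. With the PFC fit that leaves out the 10 F344_Nic libraries, 27 were called in 1 region, 2 in 2, and 1 in 3, and of those 3, 2 went 1 way. The shares of annotated transcripts were not computed for that fit, so these counts have none beside them. One of the 2 called in all 3 regions with all libraries was the transcript of ENSRNOG00000034303, lower throughout, and it is the 1 that was called in all 3 without the 10. The other, 92 bases long and hosted by ENSRNOG00000037130, had strain differences of -0.48 in PFC (-0.2 without the 10), 0.67 in HIP, and -0.72 in STR. For nicotine 50 counterparts were called in 1 region (23.5%), 3 in 2 (1.41%), and 1 in 3 (0.469%), against 14.5%, 1.08%, and 0.0319% of the annotated transcripts. Of the 4 counterparts called in 2 or 3 regions, 1 went 1 way and 3 both ways. Without the 10 libraries the numbers were 25, 3, and 0 at an unadjusted p under 0.05 and the fold limit (limma), and all 3 went 1 way. For nicotine too, shares of annotated transcripts were not computed without the 10. Nicotine differences had r of -0.02 between PFC and HIP, -0.11 between PFC and STR, and 0.38 between HIP and STR over all 213, of 0.05, -0.02, and 0.1 over the 109 long ones, and of 0.17, 0.02, and 0.61 over the 21 short ones. In 5 cases 2 PFC members had the same counterparts and are counted separately. Over the 208 unique pairs of HIP and STR transcripts r was -0.3 for strain and 0.39 for nicotine. These correlations describe transcripts that share libraries within a region.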

How the data were processed

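RNA from 3 brain regions of 144 rat samples was sequenced as paired ends after a TruSeq library kit. Per the labels and the study's methods the authors aligned reads to Rn4 with TopHat and Bowtie 1.04 and assembled and quantified transcripts with Cufflinks; the sources used here give no other versions. Each deposited cell packs several values of other units, of which FPKM, coverage, and length were read; 0 sample columns were left unused. Cells with several transcripts (2.27% to 3.1% of member values) gave the first one. FPKM holds no read counts, so depth is known only relatively, and FPKM of transcripts near the fragment length depends on Cufflinks' effective length.

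All transcripts passing the member filter (FPKM above 0.5 in 6 of 12 rats per group) were fitted per region on log2(FPKM + 0.1) with limma 3.58.1 in R 4.3.3 (trended variance, 4 groups, missing values left out, Benjamini-Hochberg over all). The study's methods print strain by sex as the factors of its analysis of variance, but all rats were male, so strain by drug was used here, and the pseudocount was chosen here too. The fit was tested on simulated data. Relations with hosts used Pearson's r and Spearman's rho with 100000 permutations, two-sided (Python 3.11.15). Rats without the member were left out of them, and host transcripts not assembled in a rat were counted as absent. Members, length classes, and comparisons were chosen with earlier results of these data known. Members to be named were those with the largest called differences, smallest p, highest level, and extreme length; because hosts have IDs only, few of them are printed, and those set side by side across regions, as well as the members with the smallest p, were chosen after their values were seen. Gene lists and cell type markers could not be applied without symbols. The alternatives left out libraries or rats, changed the pseudocount, limit, scaling, weights, missing values, or added a block or covariate. Replicate numbers did not pair samples: the mean correlation of deviations was 0 in each region for same-numbered samples and 0 for other-numbered ones. The lowest correlation of same-numbered deviations was -0.042, -0.039, and -0.075. Rats 2 to 7 nevertheless differed from the others in coverage of very short transcripts in some groups. Replicates are separate rats per the series design.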

Additional observations from a re-analysis of the deposited data

Results flagged for a closer look

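In the PFC the nicotine difference differed between strains, by the interaction term of the limma fit with Benjamini-Hochberg adjustment, for 44 members (7.5%, against 4.14% of all transcripts). Among those named, the member hosted by ENSRNOG00000010325 had an interaction of 2.79 on the log2 scale (adjusted p = 1.42e-05), the member hosted by ENSRNOG00000012966 one of 2.49 (adjusted p = 2.14e-06), and the member of 83 bases hosted by ENSRNOG00000003121 one of -4.5 (adjusted p = 0.00494). The last had FPKM of 375 to 11200 in F344_Sal, 495 to 81800 in F344_Nic, 1330 to 12000 in HIV_Sal, and 304 to 4420 in HIV_Nic. Without the 10 F344_Nic libraries the interactions were -0.54 (p = 0.315), 0.32 (p = 0.0887), and -1.62 (p = 0.16) in the limma fit, and 1 of 556 members was called after adjustment. F344_Nic is then rats 4 and 8, and for ENSRNOG00000010325 rat 8 alone, which the fit assumes to vary like the other groups.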

How the results depend on the processing

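Over 135 alternatives to the 9 counts of called members, 123 lay within 1.5 times the reported count. Of 448 for single members, 397 kept direction and call. Setting missing values to 0 gave 50 strain, 44 nicotine, and 44 interaction calls in the PFC (7.46%, 7.42%, and 9.05% of all transcripts), 26 interaction calls in the HIP (6.17%), and 38 strain and 21 interaction calls in the STR (5.36% and 4.01%); this treats transcripts that were not assembled as absent. In the PFC, leaving out the 10 F344_Nic libraries (chosen after seeing the data) gave 30, 19, and 27 calls (4.42%, 3.68%, and 5.62% of all). Removing low values and outliers gave 70 STR interaction calls among 647 members (10.5% of all, where 4.84% were called before removal); the cause was not tested. Within rats 2 to 7, 21 HIP members were called for nicotine (3.55% of all), and within rats 1 and 8 to 12, 44 STR members for strain (4.6% of all), both with fewer samples and chosen after seeing the data. Signs turned without the 10 libraries for ENSRNOG00000010325 (strain -0.05, nicotine 0.3, interaction -0.54, with F344_Nic as rat 8 alone) and ENSRNOG00000010455 (strain 0.25, nicotine -0.1), within rats 1 and 8 to 12 for ENSRNOG00000007623 (strain -0.06), and with missing values at 0 for ENSRNOG00000032995 in the PFC (0.05) and ENSRNOG00000025423 in the STR (-0.48). With the replicate number as a block, 82 PFC, 36 HIP, and 77 STR members were called for strain (9.03%, 3.92%, and 6.45% of all), and the interaction call of ENSRNOG00000012618 in the HIP was lost (p = 0.137, limma); 3, 6, and 5 of 48 samples correlated best with their own number, so single numbers did not pair samples, although coverage under 70 bases set rats 2 to 7 apart from the others in some HIP and STR groups. In the STR, leaving out HIV_Nic rats 6 and 7 gave 60 strain calls (5.93% of all) and leaving out F344_Sal rat 10 and HIV_Sal rat 6 gave 67 (6.7%), both chosen after seeing the data. The effect of depth by length or level was not tested.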
